A study of Mus musculus with 8 samples.

Results

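The colony-stimulating factors and their receptors comprised 7 genes, which were Csf1, Csf1r, Csf2, Csf2ra, Csf2rb, Csf3 and Csf3r, among 24405 genes with a row in any of the 8 tables. They were chosen by name, and each was followed in cells of 500 unique molecular identifiers (UMIs, the tags that mark single captured mRNA molecules) or more. Cells were assigned to T cells, NK cells, neutrophils, macrophages, Chil3-high cells, stromal cells and endothelial cells by summed UMIs of a few genes, none of which was a member. Of 47542 such cells, 26668 met the rule of exactly 1 class, 11159 met none and 9715 met several and were left out of the classes.

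The libraries were made by Microwell-seq, in which single cells are caught in small wells with barcoded beads, on day 7 after hearts, livers or kidneys of 8-week-old BALB/c mice had been placed in 8-week-old C57BL/6 recipients without immunosuppression. Each organ was represented by peripheral blood mononuclear cells (PBMC; "blood" in the labels) and tissue-infiltrating lymphocytes (TIL, from density gradient centrifugation of the digested allograft; "lymphocytes"), and liver and kidney also by parenchymal cells (PC; "solid organ"). The labels name strain BALB/c, male sex and an age of 8 weeks for all 8 libraries, also for those of blood, which came from the recipients. Cells came from 2 recipients per organ and 1 library stood for each of the 8 conditions, so no difference has a replicate, no p-value is given, and the libraries of an organ are not independent. Untransplanted or syngeneic controls were not analysed here.

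Colony-stimulating factors are secreted proteins that keep myeloid cells alive and drive their proliferation and maturation. Csf1 (M-CSF) acts through the receptor tyrosine kinase Csf1r on monocytes and macrophages, Csf3 (G-CSF) through Csf3r on the neutrophil lineage, and Csf2 (GM-CSF) through a binding chain, Csf2ra, paired with the signalling chain Csf2rb, which also serves the receptors of IL-3 and IL-5. On GRCm38 (GENCODE M21) the ligand genes lie on chromosome 3 (Csf1, 107741048 to 107760469, minus strand) and chromosome 11 (Csf2, 54247271 to 54249667, minus strand, and Csf3, 98701263 to 98703629, plus strand), and the receptor genes Csf2ra and Csf3r on chromosome 19 (61223957 to 61228429, minus strand) and chromosome 4 (126024550 to 126044440, plus strand). All 7 are annotated as protein coding. Csf1 is made by stromal and endothelial cells among others, whereas Csf2 is a product of activated T cells and Csf3 of stimulated macrophages, endothelium and fibroblasts.

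The promoters of myeloid receptor genes are known as targets of PU.1 (Spi1), an ETS-family factor whose sites contain the core AGGAA. Promoter sequence was at hand for 4 of the 7 members, and the part upstream of any annotated exon is shown for 3 of them, Csf1, Csf2ra and Csf3r. The windows, from RefSeq on GRCm38.p6 and read 5′ to 3′ on the strand of the gene, were chr3:107760470-107760719 (minus strand) for Csf1, chr19:61228430-61228668 (minus strand) for Csf2ra and chr4:126024409-126024549 (plus strand) for Csf3r, and capitals mark AGGAA or its reverse complement TTCCT.
Csf1: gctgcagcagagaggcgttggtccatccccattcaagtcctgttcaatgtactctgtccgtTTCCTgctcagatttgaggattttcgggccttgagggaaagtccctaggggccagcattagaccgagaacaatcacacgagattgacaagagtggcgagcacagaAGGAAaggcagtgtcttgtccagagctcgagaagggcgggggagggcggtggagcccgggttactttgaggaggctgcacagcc
Csf2ra: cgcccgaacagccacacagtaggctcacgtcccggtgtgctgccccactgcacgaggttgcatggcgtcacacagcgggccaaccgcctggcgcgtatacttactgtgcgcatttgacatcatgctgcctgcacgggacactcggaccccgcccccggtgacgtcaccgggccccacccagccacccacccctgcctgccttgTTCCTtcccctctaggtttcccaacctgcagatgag
Csf3r: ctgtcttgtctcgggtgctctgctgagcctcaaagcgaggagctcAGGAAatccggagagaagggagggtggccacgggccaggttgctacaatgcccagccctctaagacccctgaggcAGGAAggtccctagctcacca
The core occurred 2 times in the Csf1 window, 1 time in that of Csf2ra and 2 times in that of Csf3r. Windows of the same length and position held it for 60.2%, 58.6% and 41.8% of 27025 genes, so its presence is common. The longer form GAGGAA, on either strand, was in none of the 3 windows and in 23.1%, 22.1% and 13.9% of all windows of those lengths.

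Each table held 10000 barcodes, with 3418722 (kidney PC) to 19171264 (liver PC) UMIs in all and a median of 261 to 1501.5 UMIs per barcode. Between 795 (kidney PC) and 10000 (liver PC) barcodes reached 500 UMIs. The 2 largest TIL libraries carried organ markers against their labels: Alb, the hepatocyte albumin gene, stood at 113 CPM (UMIs of a gene per 1000000 UMIs of the sum) in the library labelled heart TIL and at 0 in that labelled liver TIL, whereas the atrial myosin gene Myl7 stood at 0.215 and 14.98 CPM. They are called labelled heart TIL and labelled liver TIL throughout. Any 2 libraries shared 123 to 617 barcodes, and the highest number was that of these 2 libraries. In each class with at least 20 cells, the summed independent markers of that class were highest in that class in every library tested, but Chil3-high cells of blood also carried neutrophil genes. The sum of 8 neutrophil markers ranged from 5923 to 157840 CPM in Chil3-high cells and from 43144 to 230440.0 CPM in neutrophils. In the endothelial class no library reached 20 cells.

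Csf1r, the receptor that defines the macrophage lineage, was highest in macrophages and Chil3-high cells. Summed over macrophages (at least 5 UMIs of C1qa, C1qb and C1qc), it stood at 369 CPM in labelled heart TIL, 385 in labelled liver TIL, 211 in kidney TIL, 632 in liver PC and 459 in kidney PC. Over T cells it stood at 27.3, 39.2 and 9.35 CPM in heart, liver and kidney PBMC, at 126, 113 and 44.4 CPM in labelled heart, labelled liver and kidney TIL, and at 88.2 and 162 CPM in liver and kidney PC. Macrophages lay above T cells in 5 of 5 libraries, by a median of 1.76 (1.49 to 2.83) on the log2 scale with 1 CPM added to each level, and all 5 95% intervals were above 0. These intervals, like all those given here, cover counting error only.

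In Chil3-high cells (Chil3, a secreted lectin of monocytes and alternatively activated macrophages, at 5 UMIs or more), Csf1r stood at 156 CPM in heart PBMC, 256 in liver PBMC, 378 in 22 cells of kidney PBMC, 342 in labelled heart TIL, 323 in labelled liver TIL and 567 in liver PC. The difference from T cells had a median of 2.57 (1.44 to 5.19) and was above 0 in 6 of 6 libraries, with all intervals above 0. Macrophages and Chil3-high cells did not separate, since their difference of 0.11 to 0.25 held 0 in all 3 libraries with both. Neutrophils carried less Csf1r, at 139, 144 and 77.3 CPM in blood, 170.1 and 247 CPM in labelled heart and labelled liver TIL and 171 CPM in liver PC. They lay below macrophages in 3 of 3 libraries by a median of 1.11 (0.64 to 1.88) on the log2 scale, with every interval below 0. In the 90 stromal cells of labelled liver TIL the level was 103 CPM, and NK cells, the lymphocytes without a T cell receptor, ranged from 0 (at most 98.1 CPM) to 68.6 CPM on 3 UMIs (liver PC), with 9 UMIs over the 4 libraries.

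T cells are not known to use Csf1r, so its level in them was set beside that of macrophage genes in the same sums. T cells of labelled heart TIL held 34.1% (29.8 to 39.0) of the Csf1r level of macrophages and 25.3% to 33.5% of the levels of Cd68, Aif1, Apoe, Adgre1 and Ms4a7. The corresponding values were 29.3% against 19.6% to 36.7% in labelled liver TIL, 14.0% against 8.08% to 15.3% in liver PC, 21.04% against 2.77% to 14.1% for the 4 markers measured in kidney TIL and 35.4% against 25.8% to 48.2% for the 3 measured in kidney PC. In labelled liver TIL, liver PC and kidney PC the Csf1r value fell within the range of the markers, and in labelled heart and kidney TIL above it, with intervals (11.8% to 39.4% in kidney TIL) that held the highest marker value. In kidney TIL that marker was Aif1, and the interval lay above Cd68 (6.99%), Apoe (6.29%) and Ms4a7 (2.77%). After thinning each cell to 500 UMIs, the share of cells with a Csf1r UMI was 17.2% (14.97 to 19.5) of macrophages and 6.75% (6.01 to 7.56) of T cells in labelled heart TIL, and 24.0% (20.8 to 27.4) against 4.98% (4.34 to 5.68) in liver PC. Without thinning these shares were 28.6% and 10.6%, and 60.5% and 13.3%, at median depths of 842.5, 779, 1595.5 and 1426 UMIs.

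**Figure D1:**
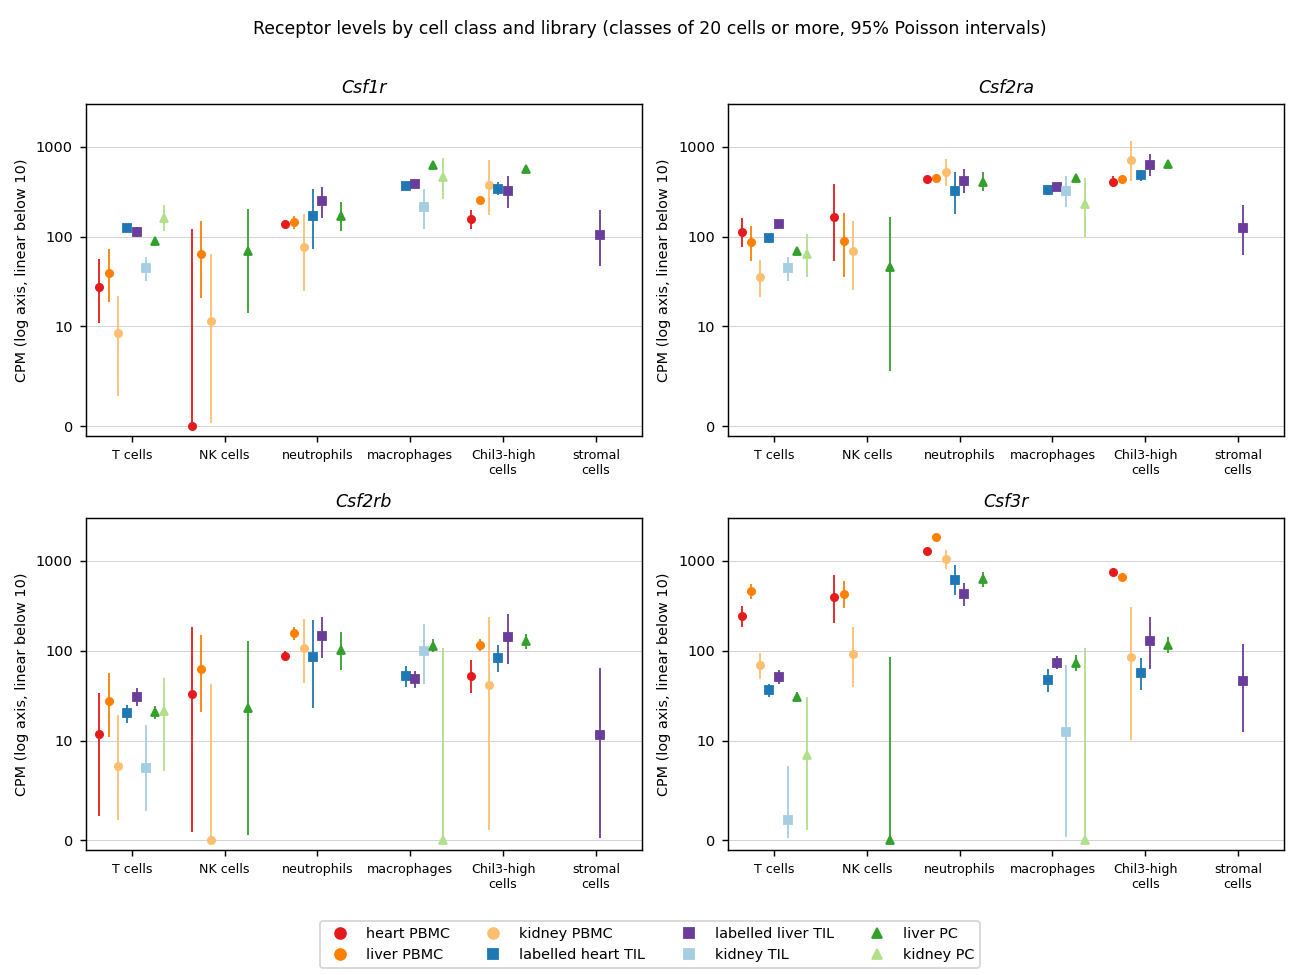
Level of Csf1r, Csf2ra, Csf2rb and Csf3r in CPM, 1 panel per gene, by cell class and library, on an axis that is linear below 10 and logarithmic above. Points are sums over the cells of a class with at least 20 cells and bars are 95% Poisson intervals. Csf1r is highest in macrophages and Chil3-high cells and Csf3r in neutrophils, from 429 to 1839 CPM, whereas Csf2ra covers all 3 myeloid classes.

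Kupffer cells, the resident macrophages of liver, were recognised within macrophages by Clec4f, Vsig4, Cd5l and Timd4 and numbered 93 in liver PC and 86 in labelled heart TIL. Their Csf1r stood at 667 CPM in liver PC, where the other macrophages had 624 CPM and the difference of 0.09 (−0.16 to 0.34) held 0. In labelled heart TIL it was 216 CPM against 388 CPM, a difference of −0.84 (−1.47 to −0.28). Csf2ra was lower in Kupffer cells than in the other macrophages of both libraries, at 296 against 486 CPM in liver PC, −0.71 (−1.09 to −0.36), and at 184 against 348 CPM in labelled heart TIL, −0.91 (−1.59 to −0.31). The intervals of Csf2rb, Csf3r and Csf1 held 0 in both libraries.

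Csf3r, the G-CSF receptor, was the member most closely tied to neutrophils (at least 2 UMIs of Mmp9, Cxcr2 and Il1r2). Its level in them was 1291 CPM in heart PBMC, 1839 in liver PBMC, 1051 in kidney PBMC, 617 in labelled heart TIL, 429 in labelled liver TIL and 621 in liver PC. Every blood library was above every tissue library. T cells held 242, 458 and 69.2 CPM in heart, liver and kidney PBMC, 36.2, 50.8 and 2.07 CPM in labelled heart, labelled liver and kidney TIL, and 30.3 and 8.55 CPM in liver and kidney PC. Neutrophils lay above T cells in 6 of 6 libraries by a median log2 difference of 3.48 (2.003 to 4.31), each with an interval above 0, and above macrophages in 3 of 3 libraries by 3.07 (2.53 to 3.69).

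Csf3r in T cells was set beside neutrophil genes in the same sums. T cells held 18.7% (14.3 to 24.1) of the neutrophil Csf3r level in heart PBMC and 24.9% (20.5 to 30.0) in liver PBMC, where S100a8, S100a9, Retnlg, Il1b and Clec4d stood at 26.7% to 35.5% and 21.6% to 26.9% of their neutrophil levels. In kidney PBMC, labelled heart TIL, labelled liver TIL and liver PC the Csf3r values were 6.58%, 5.86%, 11.8% and 4.89%, against markers of 7.16% to 10.6%, 6.22% to 11.8%, 9.33% to 18.7% and 3.37% to 6.63%. Csf3r in T cells therefore lay within the marker range in 3 of the 6 libraries and below it in the other 3, none of them above. NK cells gave 393 and 430.0 CPM in heart and liver PBMC, on 12 and 34 UMIs, and 92.4 CPM in kidney PBMC, or 30.4%, 23.4% and 8.79% of neutrophils. B cells (3 or more UMIs of Cd79a, Cd79b and Ms4a1, among cells of no class) stood higher than T and NK cells. They held 637 CPM in heart PBMC (56 cells, 28 UMIs) and 554 CPM in liver PBMC (131 cells, 55 UMIs). Neutrophil genes were not set beside the B cell values. With all cells thinned to 500 UMIs, a Csf3r UMI was found in 46.5%, 57.2% and 34.3% of neutrophils of heart, liver and kidney PBMC, 22.4% and 19.1% of those of labelled heart and labelled liver TIL and 30.0% of those of liver PC. The share in T cells was 12.98%, 21.1% and 4.23% in blood and 1.67%, 2.73% and 2.01% in the same tissue libraries. Unthinned shares of neutrophils ran from 26.2% to 67.7% at median depths of 616 to 1046.5 UMIs.

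Macrophages held 0 (at most 86.0 CPM, kidney PC) to 73.6 CPM of Csf3r. That was 7.62% (4.74 to 12.5) of the neutrophil level in labelled heart TIL, 17.1% (12.2 to 24.4) in labelled liver TIL and 11.8% (8.86 to 15.6) in liver PC. In the same cells S100a8, S100a9, Retnlg and Il1b stood at 4.64% to 7.52%, 9.42% to 11.6% and 2.58% to 4.48% of their neutrophil levels, so the Csf3r interval lay above these 4 values in labelled liver TIL and liver PC and held part of their range in labelled heart TIL. Chil3-high cells held 751 and 658 CPM in heart and liver PBMC, 84.0 CPM on 2 UMIs in kidney PBMC, and 55.9, 129 and 116 CPM in labelled heart TIL, labelled liver TIL and liver PC. The kidney PBMC value therefore lay within the range of the tissue libraries. Retnlg, a granulocyte-enriched resistin-like gene, stood at 24489, 4430 and 1847 CPM in Chil3-high cells of heart, liver and kidney PBMC and at 245 to 398 CPM in the same 3 tissue libraries. The granule genes of immature neutrophils differed in another way between the pairs. Ngp, Camp and Ltf stood at 705, 412 and 128 CPM in heart PBMC and lower in labelled heart TIL, at 231, 259.6 and 31.3 CPM, but at 27.7, 13.9 and 5.84 CPM in liver PBMC and higher in liver PC, at 315, 338 and 89.2 CPM. None of the 3 had a UMI in kidney PBMC (at most 126 CPM) or labelled liver TIL (at most 38.7 CPM). The part of these genes in the Csf3r values was not tested.

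**Figure D2:**
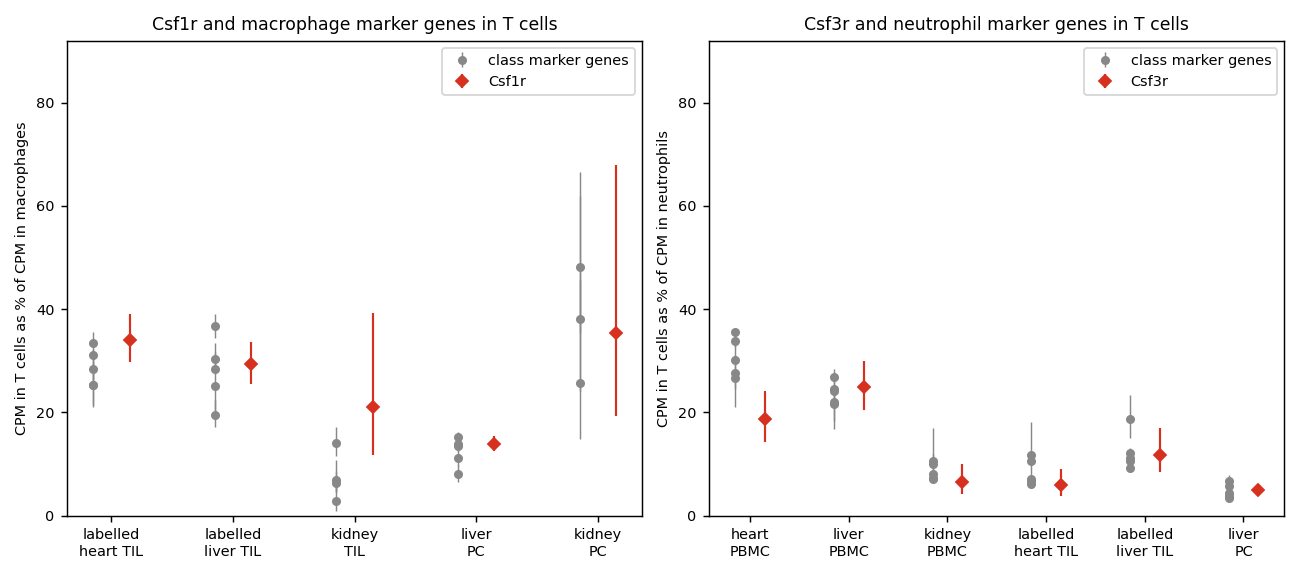
Level in T cells as a percentage of the level in the class that owns the gene, with 95% intervals, for Csf1r beside macrophage markers (source: macrophages) and for Csf3r beside neutrophil markers (source: neutrophils), by library. Csf3r sits within or below its markers in all 6 libraries, at 4.89% in liver PC, 18.7% in heart PBMC and 24.9% in liver PBMC.

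Csf2ra, the ligand-binding chain of the GM-CSF receptor, was spread over all myeloid classes. It stood at 432, 448 and 526 CPM in neutrophils of heart, liver and kidney PBMC and at 319, 420.2 and 409.9 CPM in those of labelled heart TIL, labelled liver TIL and liver PC. Macrophages held 329, 355, 323, 452 and 229 CPM in labelled heart TIL, labelled liver TIL, kidney TIL, liver PC and kidney PC. Chil3-high cells held 409.7, 438 and 714 CPM in heart, liver and kidney PBMC and 481, 632 and 638 CPM in labelled heart TIL, labelled liver TIL and liver PC. The ranges of neutrophils and macrophages overlapped, with a difference of −0.14 to 0.24 and intervals that held 0 in 3 of 3 libraries. Macrophages were below Chil3-high cells in 3 of 3 libraries, by a median of 0.55 on the log2 scale (0.50 to 0.83).

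T cells carried 35.5 (kidney PBMC) to 139 CPM (labelled liver TIL) of Csf2ra, with a median of 77.6 CPM over 8 libraries. The median log2 difference from T cells was 1.82 (1.35 to 2.83) for macrophages in 5 of 5 libraries, 2.14 (1.59 to 3.85) for neutrophils in 6 of 6 and 2.32 (1.85 to 4.29) for Chil3-high cells in 6 of 6, with all intervals above 0. In the 90 stromal cells of labelled liver TIL the level was 126 CPM on 11 UMIs, within the range of T cells. T cells of labelled heart TIL held 29.4% of the macrophage level of Csf2ra, those of labelled liver TIL 39.1%, those of kidney TIL 13.8% and those of liver PC 15.29%. The highest macrophage marker stood at 33.5%, 36.7%, 14.1% and 15.26% in the same order. Csf2ra thus lay above every marker in labelled liver TIL and, narrowly, in liver PC. Its intervals there (34.3% to 44.6% and 13.6% to 17.2%) held the highest marker value.

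Csf2rb, the signalling chain shared by the receptors of GM-CSF, IL-3 and IL-5, ran from 85.1 CPM (labelled heart TIL, 4 UMIs) to 156 CPM (liver PBMC) in neutrophils. It ran from 42.0 CPM (kidney PBMC, 1 UMI) to 142 CPM (labelled liver TIL) in Chil3-high cells. Macrophages held 52.5, 48.2, 99.3 and 114 CPM in labelled heart TIL, labelled liver TIL, kidney TIL and liver PC, and 0 UMIs in kidney PC, where the limit was 86.0 CPM. T cells held 7.23 to 30.8 CPM. This was 38.2% (26.7 to 54.8) of the macrophage level in labelled heart TIL, 63.9% (46.6 to 87.6) in labelled liver TIL and 18.1% (14.4 to 22.8) in liver PC. In the same sums the 5 macrophage markers reached at most 33.5%, 36.7% and 15.3%, and the Csf2rb interval held that highest value in labelled heart TIL and liver PC and lay above it in labelled liver TIL. Neutrophils exceeded T cells in 6 of 6 libraries, by 2.36 (2.03 to 3.69), and macrophages did so in 4 of 5, each with an interval above 0. Csf2rb (chromosome 15, 78325752 to 78353847, plus strand, GRCm38) has a near-identical neighbour on the minus strand, Csf2rb2, and the start sites of the 2 genes lie head to head 20031 bases apart. Reads that aligned to several places had been removed. The split of reads between them is uncertain. In kidney PC macrophages Csf2rb2 also had 0 UMIs. Csf2rb2 stood at 28.6, 34.4, 12.4 and 66.2 CPM in macrophages of labelled heart TIL, labelled liver TIL, kidney TIL and liver PC.

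A fixed rule of size, at least a 2-fold difference with at least 10 UMIs in the higher sum, was applied to all genes and gives the background for the members, of which Csf2 and Csf3 never had enough UMIs. No UMIs are asked of the lower sum, so the shares of all genes also depend on the sizes of both sums. Over T cells, macrophages were higher for 3 of 5 members in labelled heart TIL (6.99% of all genes tested higher and 15.2% lower), 2 of 5 in labelled liver TIL (7.63% and 13.1%), 2 of 2 in kidney TIL (4.54% and 31.2%), 4 of 5 in liver PC (12.1% and 17.8%) and 1 of 2 in kidney PC (2.9% and 24.3%). Csf1r was among them in all 5 libraries, and no member was lower. The median member differed from T cells by 1.35, 0.63 and 2.41 on the log2 scale in macrophages of labelled heart TIL, labelled liver TIL and liver PC, where the median of all genes tested was −0.23, −0.24 and −0.18. With cells of several classes counted in each of their classes, the median differences from T cells were smaller, at 1.09 and 1.11 for Csf1r in macrophages and Chil3-high cells, 0.95 for Csf2ra in macrophages and 2.35 and 1.28 for Csf3r and Csf2rb in neutrophils.

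Neutrophils were higher than T cells for 5 of 5 members in heart PBMC (18.5% of all genes higher and 19.9% lower), liver PBMC (18.8% and 23%) and labelled liver TIL (3.31% and 38.6%). They were higher for 2 of 2 members in kidney PBMC (6.46% and 50.1%), 2 of 5 in labelled heart TIL (1.85% and 51.7%) and 3 of 5 in liver PC (4.79% and 41.7%). Csf2ra and Csf3r were among these in all 6 libraries, and no member was lower. Chil3-high cells were higher than T cells for 5 of 5 members in heart PBMC (14.8% and 22.9%), 4 of 5 in liver PBMC (17.7% and 9.5%), 1 of 2 in kidney PBMC (2.75% and 44.7%), 3 of 5 in labelled heart TIL (5.18% and 20%), 4 of 5 in labelled liver TIL (3.25% and 41.4%) and 4 of 5 in liver PC (8.98% and 22.8%). Csf1 was lower in Chil3-high cells of labelled heart TIL, and no other member was lower in these 6 comparisons.

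Within a class, cells with and without a UMI of a receptor were compared for a second receptor. Among neutrophils thinned to 500 UMIs, Csf2ra was found in 19.9% (18.0 to 21.8) of heart PBMC cells with a Csf3r UMI and in 18.7% (17.0 to 20.5) of those without. In liver PBMC these shares were 20.8% (17.9 to 23.8) and 19.6% (16.4 to 23.1). Among macrophages of liver PC, Csf2ra was found in 29.0% (22.2 to 36.7) of cells with a Csf1r UMI and 22.2% (18.7 to 26.0) of those without, and in labelled liver TIL in 16.1% (12.4 to 20.4) and 16.0% (14.3 to 17.8). The intervals overlapped in each of these 4 pairs. Other gene pairs and libraries were also compared and are not listed, so the overlap describes these 4 only.

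Csf1, the ligand of Csf1r, was sparse, with 1354 UMIs over 80000 barcodes. In sums of at least 20 cells its highest levels were in neutrophils of the labelled TIL libraries and in stromal cells of labelled liver TIL. Chil3-high cells of heart PBMC and, on 2 UMIs, NK cells of liver PC stood above the neutrophils of their library. In neutrophils Csf1 stood at 51.4 CPM in heart PBMC (150 UMIs), 68.9 in liver PBMC (68), 15.5 in kidney PBMC (1), 170.1 in labelled heart TIL (8), 137 in labelled liver TIL (15) and 39.9 in liver PC (7). T cells had 7.81, 11.7 and 11.2 CPM in heart, liver and kidney PBMC, 8.71, 14.4 and 3.10 CPM in labelled heart, labelled liver and kidney TIL and 11.3 and 4.27 CPM in liver and kidney PC. The neutrophil level was above that of T cells in 6 of 6 libraries, by a median of 2.51 (0.43 to 4.14), with 5 of 6 intervals above 0 and kidney PBMC the exception. Neutrophils were also above macrophages in 3 of 3 libraries, by 3.51 (2.04 to 4.52).

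Macrophages held little of the ligand of their own receptor. Csf1 stood at 6.45, 11.1 and 8.93 CPM in macrophages of labelled heart TIL, labelled liver TIL and liver PC, on 7, 21 and 12 UMIs, and no UMI was seen in 122 macrophages of kidney TIL (at most 37.2 CPM) and 57 of kidney PC (at most 86.0 CPM). In the 3 libraries with UMIs macrophages lay below T cells, but each interval held 0. The limits of the other 2 lie above their T cell levels of 3.10 and 4.27 CPM and give no direction. In stromal cells of labelled liver TIL, the only library with at least 20, it was 91.7 CPM on 8 UMIs, against 14.4 CPM in T cells, a difference of 2.59. By the rule of size that difference was not called, since it has under 10 UMIs, and the only member called there was Csf2rb, lower in stromal cells (36.2% of all genes lower and 3.58% higher). That call rests on 1 stromal UMI, with a difference of −1.35 and an interval of −6.75 to 1.09. In 15 endothelial cells each, labelled liver TIL had 1 UMI and labelled heart TIL 0 (at most 254 CPM). NK cells held 0 in heart, liver and kidney PBMC, where the limits were 98.1, 37.9 and 34.6 CPM, and 2 UMIs in 29 cells of liver PC.

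Chil3-high cells differed widely in Csf1. It stood at 64.1 CPM in heart PBMC and 27.7 CPM in liver PBMC, where these cells also carried neutrophil genes, at 25.8 CPM on 2 UMIs in labelled liver TIL and at 6.03 CPM on 5 UMIs in liver PC. No UMI was found in 524 cells of labelled heart TIL, which allows at most 6.71 CPM. Thinned to 500 UMIs, 2.69% (2.20 to 3.26) of heart PBMC and 3.78% (2.83 to 4.94) of liver PBMC neutrophils had a Csf1 UMI, against 0.382% (0.00966 to 2.11) and 0.810% (0.0982 to 2.89) of T cells. The unthinned shares were 3.81% and 4.82%, and 0.763% and 1.21%, at median depths of 727, 663, 837 and 842 UMIs. Of 1084 Csf1 UMIs in cells of 500 UMIs or more, 23.0% lay in neutrophils, 15.6% in T cells and 29.7% in cells that met several class rules.

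**Figure D3:**
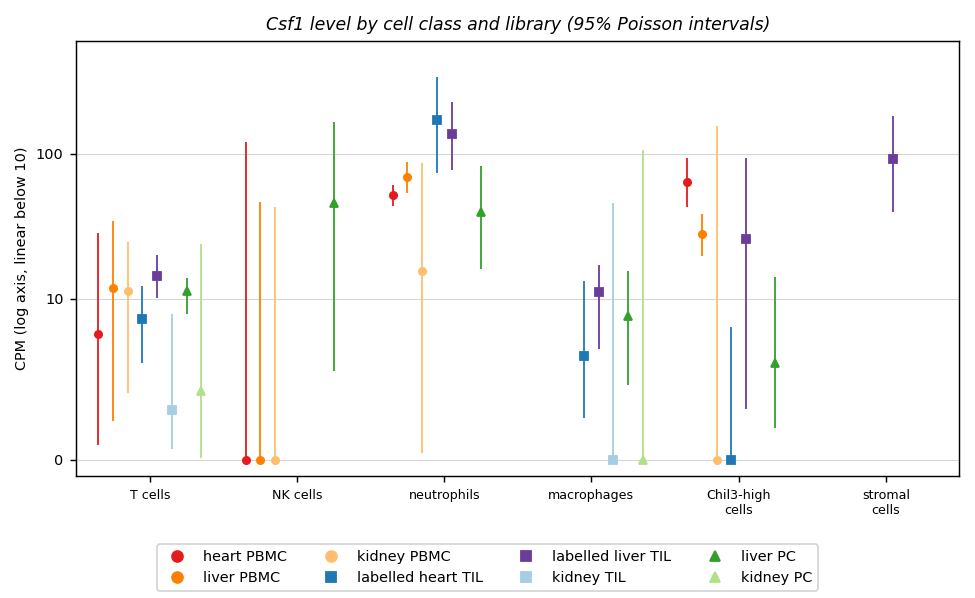
Csf1 level in CPM by cell class and library, with 95% Poisson intervals, on an axis linear below 10 and logarithmic above. Neutrophils range from 15.5 to 170.1 CPM and lie above T cells (3.10 to 14.4 CPM) in every library with both. The highest macrophage point is 11.1 CPM, and macrophages of kidney TIL and kidney PC had no UMI.

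The other ligands were close to absent. Csf2 was seen as 1 UMI in all 80000 barcodes, in a kidney PC barcode of 469 UMIs with 1 Cd8 UMI, and as none in 13624 T cells, which allows at most 0.187 CPM. Over 3995 macrophages the limit was 0.675 CPM and over 5553 neutrophils 0.697 CPM. Csf3 gave 9 UMIs in 9 cells, 2 in labelled heart TIL, 3 in labelled liver TIL, 3 in liver PC and 1 in kidney PC, or 0.145 CPM over all barcodes. Of these cells 2 were T cells, 1 was a neutrophil, 3 met no class and 3 met several. Stromal cells, known producers of Csf3, had none among 120 cells, but that sum allows up to 22.7 CPM. The tables hold a row only for genes with at least 1 UMI in a library, so Csf2 had a row in 1 table and Csf3 in 4. Ifng, the gene of interferon gamma, stood at a median of 199 CPM in T cells over the 8 libraries.

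Between graft and blood, Csf3r was lower in the sums of neutrophils, Chil3-high cells and T cells. Those of Chil3-high cells and T cells in blood also carried neutrophil genes, so they are not separate evidence for a difference within these cells. In neutrophils the log2 difference was −1.06 (−1.65 to −0.54) from heart PBMC to labelled heart TIL, −2.10 (−2.55 to −1.68) from liver PBMC to labelled liver TIL and −1.57 (−1.86 to −1.29) from liver PBMC to liver PC. In Chil3-high cells it was −3.72 (−4.40 to −3.16), −2.34 (−3.42 to −1.47) and −2.50 (−2.83 to −2.20) in the same order. Because the organ markers of the 2 labelled TIL libraries run against their labels, the levels themselves matter more than the pairing, and both these libraries lay below both heart and liver PBMC in each of these classes. In the neutrophil sums, S100a8 stood at 114947 and 88856 CPM in heart and liver PBMC. It stood at 23906 to 45669 CPM in labelled heart TIL, labelled liver TIL and liver PC. Retnlg stood at 35509 and 12424 against 1827 to 11022 CPM. Il1b went the other way, at 3863 and 2959 against 7635 to 12843 CPM. In the Chil3-high sums, Retnlg stood at 24489 and 4430 CPM in heart and liver PBMC and at 245 to 398 CPM in these tissue libraries. Il1b stood there at 2303 and 1013 CPM in heart and liver PBMC. In labelled heart TIL, labelled liver TIL and liver PC it stood at 752, 1678 and 780 CPM. The part of these genes in the Csf3r differences was not tested. Csf3r was the only member called lower in neutrophils. Since 39.8%, 23.6% and 17% of all genes were lower there, such a call was common and does not set the members apart. Of all genes 4.22%, 6.51% and 8.29% were higher, with no member among them. These shares depend on the sizes of the sums, since the rule asks for 10 UMIs in the higher sum only. Neutrophil sums held 47019, 109471 and 175654 UMIs in labelled heart TIL, labelled liver TIL and liver PC. Those of heart and liver PBMC held 2915673 and 987237 UMIs. With the 2 TIL labels exchanged, a setting chosen after seeing the data, Csf1 in neutrophils was also called higher, by 1.40 (0.54 to 2.18) in labelled liver TIL over heart PBMC, and Csf3r remained called lower in both.

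Csf1 went the other way in neutrophils of both labelled TIL libraries, though on few UMIs. The difference was 1.71 (0.49 to 2.74) for labelled heart TIL, 0.98 (0.08 to 1.81) for labelled liver TIL and −0.77 (−2.16 to 0.33) for liver PC. None reached 10 UMIs together with a 2-fold difference. Liver PC neutrophils held less Csf1 than those of labelled liver TIL, by 1.76 on the log2 scale (interval −3.32 to −0.40). The differences of Csf2ra (−0.44, −0.09 and −0.13) and Csf2rb (−0.03, −0.09 and −0.60) in neutrophils all had intervals that held 0. Csf1r of neutrophils was higher by 0.77 (0.13 to 1.38) in labelled liver TIL and by 0.29 and 0.25 in labelled heart TIL and liver PC, where the intervals held 0. The sum of 7 macrophage markers in neutrophils was also higher in tissue, at 5976, 6385 and 3342 CPM in labelled heart TIL, labelled liver TIL and liver PC against 855 and 808 CPM in heart and liver PBMC, and its part in the Csf1r differences was not tested.

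Sums of Chil3-high cells held more Csf1r in graft than in blood, at 1.13 (0.72 to 1.57) for labelled heart TIL over heart PBMC and 1.14 (0.94 to 1.35) for liver PC over liver PBMC. The latter fell to between 0.86 and 0.93, under a 2-fold difference, with a floor of 1000 UMIs, with stricter class rules or with cells of several classes counted in each. For labelled liver TIL over liver PBMC the difference was 0.33 (−0.32 to 0.92). By the rule of size Csf1r was called higher in labelled heart TIL (26.9% of all genes higher) and liver PC (11.6%), and no member in labelled liver TIL (3.19%). In labelled heart TIL a higher call was thus common among all genes. Csf1 and Csf3r were called lower in labelled heart TIL (10% lower) and liver PC (9.96%), and Csf3r in labelled liver TIL (30.6%). Csf2ra was higher by 0.54 (0.37 to 0.71) in liver PC and by 0.53 (0.08 to 0.95) in labelled liver TIL, while the Csf2rb intervals held 0 in all 3 comparisons. The calls of Chil3-high cells depend on the pairing. With the 2 TIL labels exchanged, Csf1r was higher by 0.42 (0.13 to 0.70) in labelled heart TIL over liver PBMC, which is under a 2-fold difference, and by 1.05 (0.33 to 1.73) in labelled liver TIL over heart PBMC on 25 UMIs. Over heart PBMC, labelled liver TIL then also had Csf2rb called higher, at 1.41 (0.25 to 2.53), and Csf1 called lower, at −1.28 with an interval that held 0. In the same Chil3-high cells the sum of 7 macrophage markers stood at 1167 and 1699 CPM in heart and liver PBMC and at 5311, 5936 and 3669.8 CPM in labelled heart TIL, labelled liver TIL and liver PC. One of them, Ms4a7, had no UMI in heart PBMC (at most 6.87 CPM) and stood at 12.4 CPM in liver PBMC and at 125, 77.4 and 60.3 CPM in these tissue libraries. The neutrophil gene Retnlg went the other way, at 24489 and 4430 CPM in heart and liver PBMC and 245 to 398 CPM in these tissue libraries. Neutrophils of heart and liver PBMC held 139 and 144 CPM of Csf1r, against 156 and 256 CPM in their Chil3-high cells. The part of these genes, and of neutrophil content, in the Csf1r differences was not tested. Only 1 to 6 macrophages were present per blood library, so no macrophage comparison with blood could be made.

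T cells showed the same pair of members, Csf1r higher and Csf3r lower, in all 5 graft comparisons. Csf1r was higher by 2.16 (1.15 to 3.52) in labelled heart TIL, 1.503 (0.63 to 2.60) in labelled liver TIL, 1.15 (0.28 to 2.24) in liver PC, 2.13 (0.92 to 3.94) in kidney TIL and 3.98 (2.77 to 5.82) in kidney PC, on 5 to 10 UMIs in the blood libraries. Csf3r was lower by 2.71, 3.15, 3.87, 4.52 and 2.88 on the log2 scale, each with an interval below 0. Of all genes 26%, 18.9%, 25.7%, 13.2% and 12.3% were called higher and 3.65%, 4.23%, 2.68%, 12% and 21.8% lower. A higher call was thus common among all genes, and so was a lower call in kidney PC. With the 2 TIL labels exchanged both members kept their calls, and Csf2rb was called higher in labelled liver TIL over heart PBMC, at 1.32 (−0.20 to 3.71). Blood held 1 to 6 macrophages per library and 99 to 3755 neutrophils, the graft libraries 57 to 2030 macrophages and 1 to 141 neutrophils. In the same T cell sums, Retnlg stood at 12036, 3046 and 1479 CPM in heart, liver and kidney PBMC. In the graft libraries it stood at 6.20 to 418 CPM. Ms4a7 had no T cell UMI in blood and stood at 6.20 to 115 CPM in the graft libraries. Il1b, another neutrophil gene, was higher in labelled liver TIL, at 974 CPM, than in liver PBMC, at 638 CPM. The part of these cells and genes in the differences was not tested. Csf1 in T cells did not differ between graft and blood beyond counting error, at 0.14 (−1.81 to 3.26), 0.27 (−1.37 to 2.64), −0.05 (−1.65 to 2.25), −1.58 (−4.48 to 0.37) and −1.21 (−6.92 to 1.65) in the order above.

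**Figure D4:**
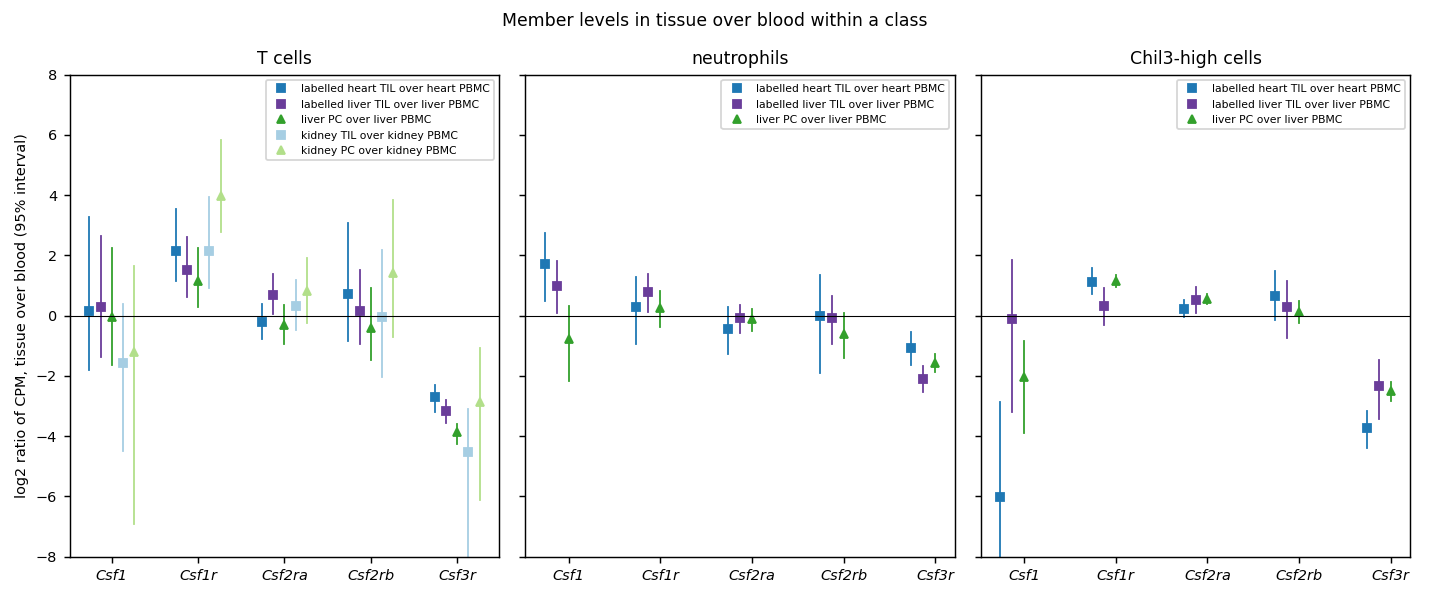
Log2 difference of graft over blood for the members, in T cells, neutrophils and Chil3-high cells, 1 marker per graft library, with 95% intervals for counting error; an interval without a bound is drawn to the edge of the axis. The lowest Csf1 point of Chil3-high cells rests on 0 UMIs in labelled heart TIL and depends on the 1 CPM added. Csf3r lies below 0 in every comparison, Csf1r lies above 0 in T cells, and Csf1 in T cells holds 0 throughout. The neutrophil gene Retnlg was also lower in the graft than in the blood sums of T cells and Chil3-high cells.

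Among graft libraries, macrophages of liver PC exceeded those of labelled heart and labelled liver TIL in Csf1r, Csf2ra and Csf2rb. Csf1r was higher than in labelled heart TIL by 0.78 (0.60 to 0.95) and than in labelled liver TIL by 0.71 (0.57 to 0.86). Csf2ra was higher by 0.46 (0.27 to 0.65) and 0.35 (0.19 to 0.51), and Csf2rb by 1.10 (0.67 to 1.58) and 1.22 (0.86 to 1.63). Labelled heart and labelled liver TIL macrophages did not separate in Csf1r, with an interval of −0.24 to 0.12. Over kidney TIL, liver PC was higher in Csf1r by 1.58 (0.89 to 2.37), whereas the intervals of Csf2ra (−0.08 to 1.11) and Csf2rb (−0.82 to 1.43, on 8 UMIs in kidney TIL) held 0. Over kidney PC, the intervals of Csf1r and Csf2ra in liver PC held 0. Both labelled libraries exceeded kidney TIL in Csf1r, by 0.80 (0.11 to 1.60) and 0.86 (0.18 to 1.65), on 17 UMIs in 122 kidney cells. The macrophages of liver PC were also deeper, with a median of 1595.5 UMIs per cell against 842.5, 781.5 and 611 in the 3 TIL libraries. PC and TIL libraries differ in preparation too, as solid organ and density gradient fractions. Organ and preparation cannot be told apart in the comparisons of PC with TIL. Labelled heart TIL itself carried Alb and Kupffer cells, so its organ is uncertain. In blood, Csf3r of neutrophils was lower in heart than in liver PBMC by 0.51 (interval −0.59 to −0.43), and higher in liver than in kidney PBMC by 0.81 (0.46 to 1.18). Granule genes of immature neutrophils also differed between these sums, with Ngp at 462, 130 and 2288 CPM, Camp at 99.5, 40.5 and 1206 CPM and Ltf at 34.3, 9.12 and 464 CPM in heart, liver and the 99 kidney PBMC neutrophils, and their part in the Csf3r differences was not tested.

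Genes with the pattern most like each member were ranked by Pearson correlation over 30 sums of a class in a library, among 9880 genes. The sums share libraries and cells of several depths, so the values are descriptions. Csf1r was most like Cd68 (r = 0.96), a lysosomal glycoprotein of macrophages, Ctsh (0.95), a lysosomal protease, Pld4 (0.94), Ms4a6c (0.94) and Rab32 (0.93). Csf3r was most like Sirpb1b (0.96), Hdc (0.95), the enzyme that makes histamine, Stfa2l1 (0.95), Clec4d (0.95), a C-type lectin, and Slpi (0.94), a protease inhibitor. For Csf2ra these were Fcgr3 (0.93), an Fc receptor for IgG, Prdx5 (0.93), a peroxiredoxin, Ifi204 (0.91), Pla2g7 (0.91) and Unc93b1 (0.90), which carries Toll-like receptors to endosomes. Csf2rb had lower values, led by Arrdc4 (0.83), Nrros (0.83), Atf6b (0.82), Cd300a (0.81) and Mefv (0.81), as did Csf1 with Hist1h2be (0.82), Gm17455 (0.76), Rab44 (0.73), Gbp5 (0.72) and Ankrd22 (0.72). Between members r was 0.66 for Csf2ra with Csf2rb, 0.20 for Csf1 with Csf1r and −0.11 for Csf1r with Csf3r.

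The other genes of these pathways were compared by the class with the highest median over libraries, among T cells, neutrophils, macrophages and Chil3-high cells. NK, stromal and endothelial cells were not ranked. Macrophage medians cover tissue libraries only, and those of the other classes ranked cover blood and tissue. The counts are given without the share of all genes highest in each class and describe these lists only. Of 16 signalling genes, 8 were highest in neutrophils, 3 in macrophages, 2 in Chil3-high cells and 3 in T cells. Socs3, a feedback inhibitor of cytokine receptors that include Csf3r, had a median of 584 CPM in neutrophils and 86.8 CPM in T cells, and Pim1, a kinase gene induced by STAT5, 630.4 and 139 CPM. Tyrobp, an adaptor with an activating motif that works with myeloid receptors, stood at 5700.2 CPM in neutrophils and 3195 CPM in macrophages. Jak1, Stat5a and Cish were highest in T cells, with 113 CPM of Jak1. Of 8 myeloid transcription factors, 3 were highest in neutrophils, 2 in macrophages, 2 in Chil3-high cells and 1, Gfi1, in T cells. Spi1, which encodes PU.1, had medians of 1021 CPM in neutrophils, 986 in Chil3-high cells, 811 in macrophages and 223 in T cells. Irf8 and Maf were highest in macrophages, at 308 and 85.8 CPM.

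Of 13 cytokine genes of T cells, ranked among the same classes without NK cells, 8 were highest in T cells and 3 (Tnf, Ccl3 and Ccl4) in neutrophils. Il13 and Il17a had a median of 0 in every class ranked. Of 6 further ligands and receptors of these families, Il3, Il5 and Il5ra had medians of 0. Il34, the other ligand of Csf1r, had a median of 0.0665 CPM in T cells and 0 in the 3 myeloid classes. Its UMIs were few, with 4 in T cells of kidney TIL (4.13 CPM), 3 in T cells of kidney PC (12.8 CPM), 1 in macrophages of kidney PC, and at most 1 in any other sum. Il3ra, which pairs with Csf2rb, was at 28.1 CPM in macrophages, 26.2 in Chil3-high cells, 25.1 in T cells and 8.68 in neutrophils.

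The floor of 500 UMIs left out most barcodes of the kidney libraries, and the members were not spread evenly across it. In heart and liver PBMC, Csf3r stood at 1283 and 1518 CPM in barcodes under 500 UMIs and at 1076 and 1081 CPM above it. In kidney PBMC it stood at 579 CPM in 8857 barcodes under the floor and 188 CPM in 1143 above it, and Csf1 at 54.1 and 13.4 CPM. In kidney TIL and kidney PC, Csf3r was at 8.55 and 10.6 CPM below the floor and 6.08 and 6.06 CPM above it. In kidney TIL, Csf1r stood at 147 CPM below the floor and 79.8 CPM above it, Csf2ra at 132 and 82.5 CPM, and Csf2rb at 31.8 and 16.9 CPM, with intervals that did not overlap. In kidney PBMC, Csf2ra stood at 227 and 129 CPM and Csf2rb at 57.0 and 27.7 CPM, again without overlap, and Csf1r at 67.4 and 58.2 CPM with overlap. In kidney PC the intervals of all 3 receptor genes overlapped, with 185 and 178 CPM of Csf1r.

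**Figure D5:**
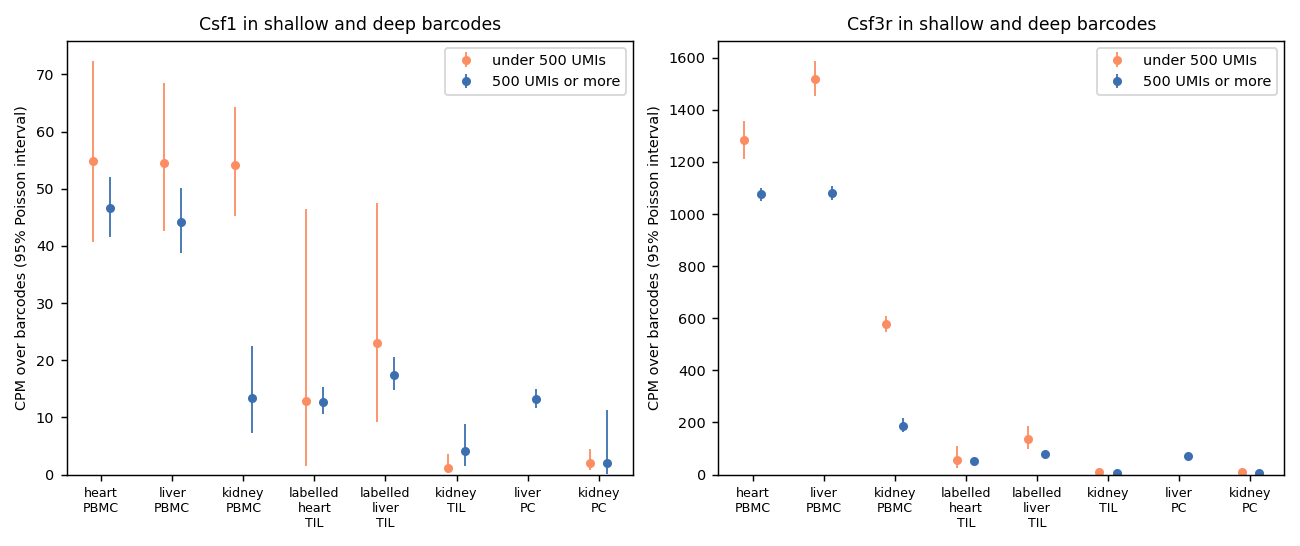
Csf1 and Csf3r in CPM in barcodes under 500 UMIs and of 500 UMIs or more, per library, with 95% Poisson intervals. The kidney PBMC library has Csf3r at 579 CPM under the floor and 188 CPM above it.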

How the data were processed

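Each of the 8 samples was 1 Microwell-seq library of polyA RNA. The authors deposited raw UMI counts per gene and barcode, 10000 barcodes per table, after demultiplexing with bcl2fastq, preprocessing with the Drop-seq tools (read pairs with a barcode base quality below 10 discarded), alignment with STAR to GRCm38 (release 88 per the study's methods), removal of multi-aligned reads, tagging of genes by a GENCODE annotation, and merging of UMIs 1 edit apart. Coordinates were taken from GENCODE M21, an annotation of the same build that may differ from the one the authors used.

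Cells of 500 UMIs or more were classed by summed UMIs: T cells by Cd3d, Cd3e, Cd3g, Trac and Trbc2 (3 or more), neutrophils by Mmp9, Cxcr2 and Il1r2 (2 or more), macrophages by C1qa, C1qb and C1qc (5 or more) and Chil3-high cells by Chil3 (5 or more). NK cells met 3 or more UMIs of Ncr1, Klrb1c and Klra genes without Cd3 UMIs. Stromal cells met 5 or more of Col1a1, Col1a2, Col3a1 and Dcn, and endothelial cells 3 or more of Eng, Egfl7, Cdh5, Kdr, Tie1 and Ptprb. Cells meeting several rules, which may be doublets, were left out, and no doublet caller was run.

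Counts were summed per class and library and given as CPM of the sum, with exact 95% Poisson intervals. Differences were of log2(CPM + 1), between sums of at least 20 cells. Their exact conditional intervals are those of the CPM ratio without the added 1 CPM, so at low levels value and interval do not describe quite the same quantity. A member's level of 0 in a class is given with the limit that 3 UMIs would allow. Shares of cells were thinned to 500 UMIs (random seed 0) with exact binomial intervals. The rule of size and its intervals were checked on simulated Poisson counts. The changes simulated there exceeded the fold of the rule, and genes with few expected UMIs were not scored. With 1 library per condition no test between conditions was run, and differences that recur over libraries are given as counts of libraries. UMI counts were not scaled by gene length, so levels were compared within a gene only. Likeness was the Pearson correlation of log2(CPM + 1), 5 genes being named per member of at least 100 UMIs. The members, classes and gene lists were chosen with earlier results of these data known, and the promoter motif after the windows had been read. A gene of these lists is not reported here. Alternatives were a UMI floor of 1000 or 250, at most 10% mitochondrial UMIs, the deepest 5% of cells left out, cells of several classes counted in each, class rules 1 UMI higher, thinned cells, shared barcodes left out, a pseudocount of 10 CPM, no filter on low counts, the TIL labels exchanged, and stricter Chil3-high rules. Computation used Python 3.11.15, numpy 2.4.6, scipy 1.17.1, pandas 2.3.3 and matplotlib 3.10.9.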

Additional observations from a re-analysis of the deposited data

Results flagged for a closer look

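Both values concern kidney PBMC barcodes under the floor of 500 UMIs, which no comparison used. Csf1 stood at 54.1 CPM (45.2 to 64.2) in these 8857 barcodes, on 130 UMIs, against 13.4 CPM (7.30 to 22.4) in the 1143 barcodes of 500 UMIs or more. Csf3r stood at 579 CPM (549 to 610.1) on 1391 UMIs, against 188 CPM (163 to 216) on 197 UMIs. Both were picked out because a signal outside the cells analysed exceeded that within them. The Csf1 level of the shallow barcodes lay beside the 54.8 and 54.4 CPM of shallow barcodes in heart and liver PBMC. Under a floor of 250 UMIs, chosen after seeing these values, all 19 differences and counts with a value moved by less than their intervals or by less than 1.5 times. Of the 8857 barcodes, 4346 lie under 250 UMIs and stayed out, so this setting covers only part of them.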

How the results depend on the processing

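With 1 library per condition, leaving out a replicate was not possible. No paired analysis was possible because the labels give no replicate numbers and the results come from no test. The differences among the 19 results counted below were taken within a library or, by label, within an organ. Those among graft libraries, among blood libraries and with the TIL labels exchanged also crossed organs. Over 19 differences and gene counts, 182 alternative values were computed, of which 163 stayed close to the reported value, 19 moved and 0 reversed a called direction. Over 46 levels, 329 of 361 values stayed close and 32 moved. With cells of several classes counted in each, the median difference from T cells fell to 1.09 for Csf1r in macrophages, 1.11 for Csf1r and Chil3-high cells, 2.35 for Csf3r and 1.28 for Csf2rb in neutrophils and 0.95 for Csf2ra in macrophages, and that of liver PC over liver PBMC became 0.89 for Csf1r in Chil3-high cells and −2.26 for Csf3r in neutrophils. For Csf1r in Chil3-high cells, liver PC over liver PBMC, the value was 0.86 with a floor of 1000 UMIs, 0.93 with rules 1 UMI higher and 0.89 with at most 2 Retnlg UMIs per cell, a setting chosen after seeing the data, so it lies below a 2-fold difference under all of these. For Csf3r in neutrophils it was −1.24 with cells thinned to 500 UMIs. Genes past the fold in liver PC over liver PBMC numbered 3348 in T cells (838 with a pseudocount of 10 CPM, 5088 with no filter), 1683 in Chil3-high cells (765, 4540, and 3265 with cells of several classes) and 1533 in neutrophils (848 with a floor of 1000 UMIs, 7283 with no filter, 3156 with cells of several classes). The Csf1 differences of T cells, whose intervals hold 0, changed sign in 6 alternatives for liver PC, 5 for labelled heart TIL and 2 for labelled liver TIL. With the TIL labels exchanged they were 0.81 over heart PBMC and −0.39 over liver PBMC. Csf2 had no UMI in either class of its planned comparison, and macrophages of blood were too few, so neither gave a value.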

Other observations

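Several-class cells, left out of all classes, made up 1.40% (kidney PBMC) to 38.07% (liver PC) of cells of 500 UMIs or more. In heart PBMC, 1605 cells met the neutrophil and the Chil3 rule and held 1093 CPM of Csf3r and 159 CPM of Csf1r. In liver PC, 1199 cells met the T cell and the macrophage rule and held 335 CPM of Csf1r, between the 88.2 CPM of T cells and the 632 CPM of macrophages. Cells that met no class held 114 to 324 CPM of Csf1r, the highest in liver PC, and Csf3r of 975 and 1099 CPM in heart and liver PBMC. Precursor-like cells, called by Elane, Mpo, Prtn3 and Ctsg, granule genes of immature granulocytes and monocytes, numbered 33 in labelled heart TIL and 42 in liver PC. Their Csf2ra stood at 511 and 285 CPM, and their Csf3r at 25.5 CPM on 1 UMI and 64.4 CPM on 7 UMIs.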
